A study of Mus musculus with 2 samples.

Results

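Members of the STAT and JAK gene families were followed through the cells of the mouse knee. The 8 genes are the transcription factor genes Stat3, Stat5a, Stat5b, Stat6 and Stat2 and the kinase genes Jak1, Jak2 and Tyk2, taken by name as 8 of the 32245 genes measured. Other genes of the families were not analysed here. The cells came from knees of female mice at 1 month of age, and there was 1 single-cell library per genotype. The control library was made from Stat3fl/fl mice, in which both Stat3 alleles carry loxP sites and no Cre is present. The mutant library was made from Acan-Cre+/Cre;Stat3fl/fl mice, which carry the same floxed alleles and also a tamoxifen-inducible Cre inserted at Acan, the gene of the cartilage proteoglycan aggrecan. Per the study's methods, tamoxifen was given in the first days after birth, a few mice were pooled for each library, and dead, blood and endothelial cells were gated out in a sort, although erythroid cells remained in the tables. Animals cannot be told apart within a pool, so no difference between genotypes has a replicate check and no test across animals was possible.

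The JAK kinases sit on the inner side of cytokine receptors and are switched on when a ligand brings receptor chains together. They then phosphorylate STAT proteins, which pair up, enter the nucleus and act on genes. Cytokines of the interleukin-6 family use the shared receptor chain gp130, kinases of the JAK1, JAK2 and TYK2 group and mainly STAT3. In the growth plate, growth hormone acts through JAK2 and STAT5 proteins, and interferons act through STAT2 together with IRF9. A transcript level of a STAT or JAK gene does not measure the phosphorylated, active protein.

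Cells were placed in gates by marker genes. Chondrocytes were the cells marked by the authors in a text column of the tables, fibroblasts held at least 2 of Pi16, Cd34 and Dpp4, osteoblasts both Bglap and Ibsp, tendon cells both Tnmd and Thbs4, and marrow stroma cells both Adipoq and Lepr. A cell was counted as holding a gene when its value was above 0, and the 85 control and 48 mutant cells that passed several gates were left out. The control library gave 468 chondrocytes, 132 fibroblasts, 137 osteoblasts, 258 tendon cells and 90 marrow stroma cells. The mutant library gave 292, 50, 90, 29 and 48 cells in the same order. In every gate, all 6 further markers of its own cell type that the gate did not use were above 0 in at least 10% of cells of each library. For reference there were 2 more gates, mural cells (Rgs5 and Notch3; 45 control and 36 mutant cells) and erythroid cells (at least 2 of Alas2, Hemgn and Klf1; 1538 and 23 cells).

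The libraries differed in ways that touch every value below. There were 4903 control cells, at a median of 4344 estimated UMIs (unique molecular identifiers, 1 per captured transcript), and 1340 mutant cells, at a median of 3743. Globin transcripts were seen in 75.7% of all control cells against 8.43% of all mutant cells, but in 0% of gated chondrocytes of either genotype. With chondrocytes taken by Sox9 and Col2a1 instead of the authors' mark, the gate held 916 control and 295 mutant cells, against 468 and 292. The mark thus covered unlike parts of such cells in the 2 libraries, and the 0% holds for marked cells only. How this bears on the chondrocyte values was not tested. More than 5% mitochondrial counts were found in 14.2% of control cells against 36.7% of mutant cells, and among chondrocytes in 4.27% against 19.5%. Over the 5 gates the 6 leukocyte markers summed to at most 32.7 CPM, with the defining marker Ptprc at 0, and the 6 endothelial markers to at most 74.9 CPM. The 6 chondrocyte markers summed to 27442 CPM in control and 17715 CPM in mutant chondrocytes. Outside that gate they summed to 96.8 and 959 CPM in fibroblasts, 5941 and 4485 CPM in osteoblasts, 6256 and 3266 CPM in tendon cells and 1646 and 74.5 CPM in marrow stroma, and their part in the values of those gates was not tested. The 2 libraries shared 2 cell barcodes. Levels are given as CPM, the summed UMIs of a gene in the gated cells scaled by the total UMIs of those cells. A 3′ library counts 1 tag per molecule, so CPM of different genes were not divided by length. Brackets give exact 95% Poisson intervals of the UMI sum, rounded to whole UMIs, or exact (Clopper-Pearson) 95% intervals of a share of cells. They cover counting error only and say nothing about the spread between animals. A ratio is log2((mutant CPM + 1)/(control CPM + 1)), and a gene was tested in a gate when the mean CPM of both libraries was at least 10.

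In the Gencode M21 annotation of GRCm38, Jak1 is at chr4:101152367-101265282 on the minus strand, Tyk2 at chr9:21104068-21131243 (minus), Stat6 at chr10:127642986-127660957 (plus), Stat2 at chr10:128270559-128292849 (plus) and Jak2 at chr19:29251828-29313080 (plus). The other three form a cluster on chromosome 11, with Stat5b at chr11:100780731-100850724 (minus), Stat5a at chr11:100859351-100885169 (plus) and Stat3 at chr11:100885098-100939540 (minus). Stat5b and Stat5a are separated by 8626 bases. Stat5a and Stat3 run toward each other, and the last 72 bases of the one overlap the last 72 bases of the other. These are the ends that a 3′ library captures. The kit marks strand, but the sources used here do not state whether strand was used in counting, and without strand reads in this overlap cannot be assigned. Tyk2 also overlaps an antisense gene, 1700084C06Rik, over 24326 bases, and that gene was at 1.58 CPM or less in each gate and library.

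Promoter sequences were available for all 8 genes (RefSeq, GRCm38.p6, 300 bases that end shortly after the start of a transcript). They were searched on both strands for the spacing that STAT dimers prefer, TTCNNNGAA (the GAS element), for the wider spacing TTCNNNNGAA that STAT6 favours, and for GAAANNGAAA, the core of the interferon-stimulated response element (ISRE) bound by STAT2 complexes. Among 32851 promoters of this length in the same collection, 8.30% held the first, 6.95% the second and 3.44% the third. Of the 8 genes, Stat2 was the only one with a match. Its promoter held the ISRE letters at bases 29 to 38 and the wider spacing at bases 41 to 50. The ISRE letters start 222 bases before the transcript start of the promoter collection. The whole Stat2 promoter sequence lies upstream of the Gencode gene start given above. Among the genes around the members, the feedback gene Socs1 and Ifit1, Ifit3 and Isg15 of the interferon-responsive list also held the ISRE letters. The promoters of Stat3, the targeted gene, of Stat2, and of Socs1, which was past 1.5-fold in chondrocytes, are shown 5′ to 3′ with matched bases in capitals. These 3 were chosen after the expression values were known. A match describes the letters and is not a measured binding site. The Stat3 sequence, at chr11:100939491-100939790 on the minus strand, has no match. The Stat2 sequence is at chr10:128270248-128270547 on the plus strand. The Socs1 sequence, at chr16:10785487-10785786 on the minus strand, has 2 overlapping ISRE matches, which appear as a single run of capitals.
Stat3: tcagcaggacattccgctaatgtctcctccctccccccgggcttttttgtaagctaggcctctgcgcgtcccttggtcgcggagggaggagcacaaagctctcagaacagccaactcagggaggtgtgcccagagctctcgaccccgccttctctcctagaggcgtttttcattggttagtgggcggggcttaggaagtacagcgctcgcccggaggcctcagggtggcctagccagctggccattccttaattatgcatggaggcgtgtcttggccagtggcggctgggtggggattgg
Stat2: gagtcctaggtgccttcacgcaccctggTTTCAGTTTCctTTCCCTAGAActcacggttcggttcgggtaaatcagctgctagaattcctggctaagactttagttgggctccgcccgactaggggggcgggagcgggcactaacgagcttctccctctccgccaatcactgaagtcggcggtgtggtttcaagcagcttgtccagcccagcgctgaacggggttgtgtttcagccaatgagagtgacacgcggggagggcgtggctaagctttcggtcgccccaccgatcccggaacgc
Socs1: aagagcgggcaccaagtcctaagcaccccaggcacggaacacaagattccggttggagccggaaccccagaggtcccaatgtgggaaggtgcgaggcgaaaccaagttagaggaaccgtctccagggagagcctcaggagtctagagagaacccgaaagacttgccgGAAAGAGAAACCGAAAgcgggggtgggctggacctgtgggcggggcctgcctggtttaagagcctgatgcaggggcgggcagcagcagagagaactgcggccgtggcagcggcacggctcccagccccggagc

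Stat3, which carries the signal of gp130 cytokines, was the most abundant of the 5 STAT genes in each of the 5 gates of both libraries. In control chondrocytes it was at 138 CPM (125 to 152; 388 UMIs), and in mutant chondrocytes it was at 99.4 CPM (88.0 to 112; 273 UMIs). The mutant level was therefore lower by a log2 ratio of -0.47, and the counting intervals did not overlap. The median ratio of the 7471 genes tested in chondrocytes was itself -0.17, and 28.3% of them were lower than Stat3, so the Stat3 ratio lay within the bulk of the distribution. Stat3 was above 0 in 51.1% of control chondrocytes (46.4% to 55.7%) and in 46.6% of mutant chondrocytes (40.7% to 52.5%), at median depths of 5834 and 8781 UMIs. With each cell cut down to 1000 UMIs at random, and 11 control and 12 mutant cells too shallow for this, Stat3 was seen in 13.3% (10.4% to 16.8%) of control and 9.29% (6.16% to 13.3%) of mutant chondrocytes. The difference in share was -4.49 percentage points before thinning, with an interval from -11.9 to 3.01 that includes 0, and -4.06 points after it. Thinning, as 1 random draw, moved the level ratio to -0.62, past 1.5-fold. With every cell weighted equally the level ratio was -0.57, just under 1.5-fold. Among cells at or under 5% mitochondrial counts the level ratio was -0.36, and the difference in share was 1.14 points. A tag at the 3′ end carries no information on the floxed exons of its molecule, so these levels do not check the deletion. Acan, whose locus carries the Cre, fell in the same cells from 5093 to 1855 CPM (log2 ratio -1.46). Acan was also found outside the chondrocyte gate, at 302 and 16.9 CPM in osteoblasts, 397 and 75.6 CPM in tendon cells and 225 and 8.90 CPM in marrow stroma, control and mutant respectively. The control marrow stroma value came from 10 of 90 cells, 3 of which held 92.1% of its UMIs.

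Outside chondrocytes, Stat3 did not move in 1 direction in summed levels without thinning. It was at 121 CPM (91.4 to 157) in control and 157 CPM (120 to 205) in mutant fibroblasts, a log2 ratio of 0.38. In osteoblasts the values were 133 and 121 CPM (-0.14), in tendon cells 95.8 and 72.9 CPM (-0.39), and in marrow stroma 160 and 177 CPM (0.14). None of these 4 ratios passed 1.5-fold, and the counting intervals of control and mutant overlapped in each gate. With other gating the fibroblast ratio did pass. It was 0.66 with cells in several gates kept, 0.64 with at least 2 UMIs of each gating marker and 0.62 with either marker. Thinned to 1000 UMIs it was -0.43, and Stat3 was then called past 1.5-fold lower in osteoblasts and marrow stroma. Marrow stroma was the highest and tendon the lowest of the 5 gates in both libraries, while chondrocytes stood just below marrow stroma among control cells and just above tendon among mutant cells. Neighbours in this order overlapped in their counting intervals in each library. Among control erythroid cells Stat3 was at only 9.53 CPM (7.78 to 11.6) and was above 0 in 7.02% of cells at a median of 6373 UMIs. Thinned to 1000 UMIs, 1.12% of these erythroid cells were above 0, against 13.3% of control chondrocytes.

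Taken over whole libraries, Stat3 had the opposite direction to that in chondrocytes. It was at 68.9 CPM (65.6 to 72.4) over all control cells and at 120.1 CPM (112 to 128) over all mutant cells. The erythroid gate, where Stat3 was lowest, held 1538 control cells and 23 mutant cells. Stat6 and Stat2 were likewise higher over all mutant cells (17.7 against 20.9 CPM and 13.9 against 18.2 CPM), whereas Stat5a, Stat5b, Jak2 and Tyk2 were lower. Jak1 rose from 171 (165 to 176) to 200.4 CPM (190.3 to 211) over all cells although it fell in chondrocytes.

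**Figure D1:**
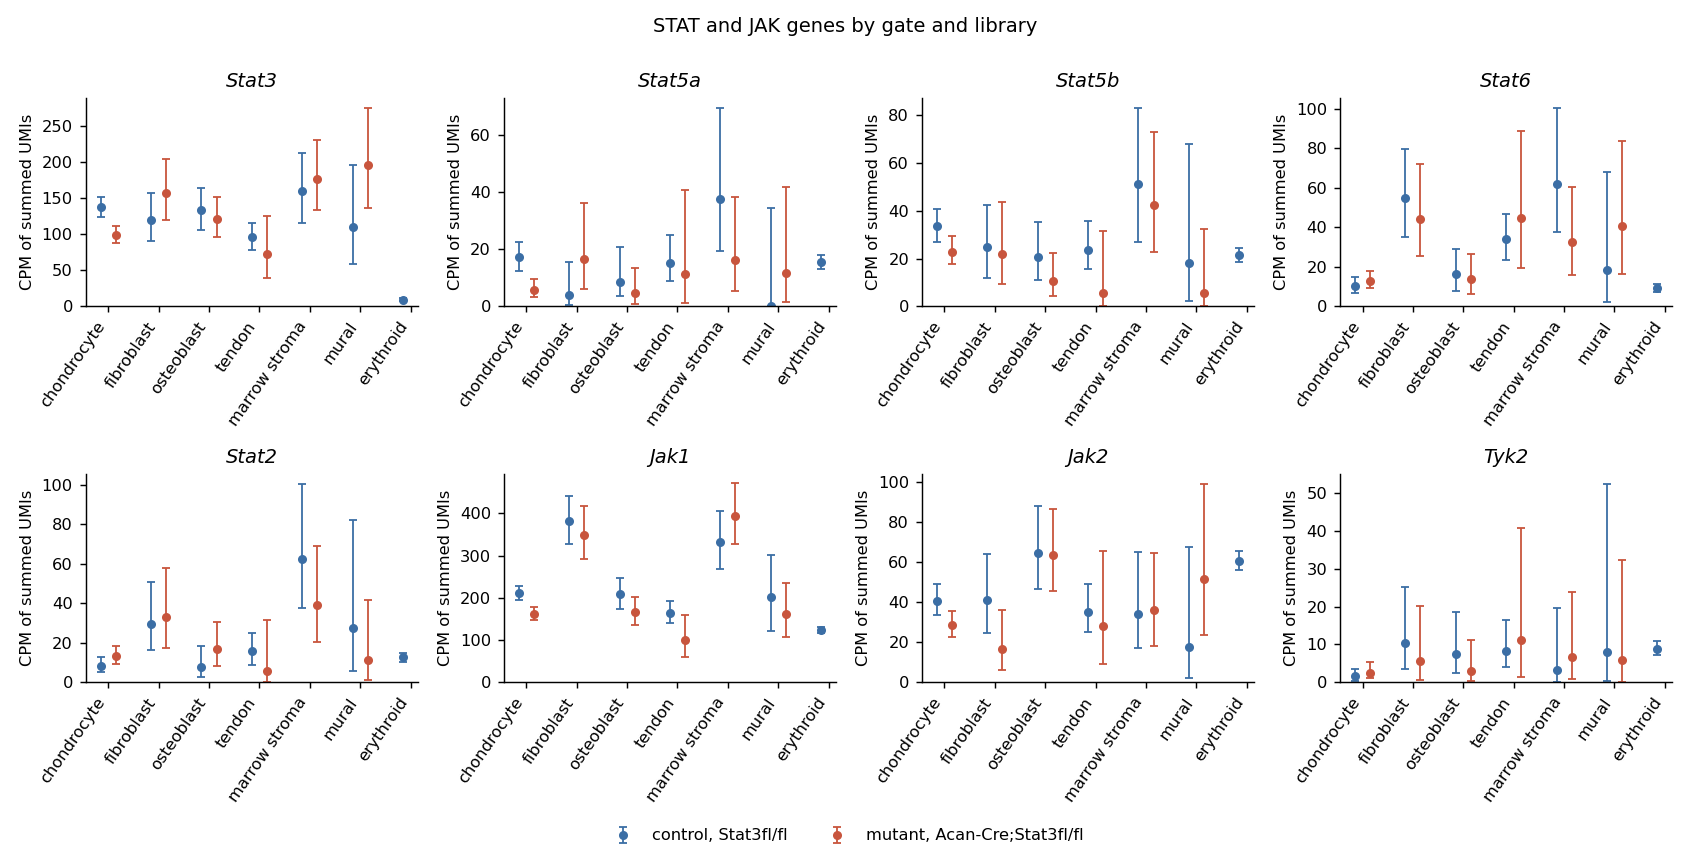
Each panel plots 1 gene, with the level in CPM (linear axis from 0) in 7 gates of the control (blue) and mutant (red) library; bars are exact 95% Poisson intervals. The mutant erythroid gate, with 23 cells, is not drawn. Stat3 is lowest in erythroid cells (9.53 CPM in the control), and Jak1 is highest in fibroblasts and marrow stroma. Stat6 and Stat2 are low in chondrocytes, osteoblasts and control erythroid cells, and Stat2 also in mutant tendon cells.

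Jak1, the kinase shared by gp130, interferon and many interleukin receptors, was the most abundant of the 8 genes in each of the 5 gates. It was at 211 CPM (194 to 229) in control and 161 CPM (147 to 177) in mutant chondrocytes, a log2 ratio of -0.38 with counting intervals apart. The share of chondrocytes above 0 for Jak1 was nevertheless 58.5% for control and 58.2% for mutant cells, and after thinning it was 17.1% (13.7% to 20.8%) and 11.1% (7.65% to 15.3%). In fibroblasts Jak1 was at 381 and 349 CPM and in marrow stroma at 331 and 394 CPM, in control and mutant respectively. These gates were higher than chondrocytes by log2 ratios of 0.85 and 1.11 (fibroblasts, control and mutant) and of 0.65 and 1.28 (marrow stroma). Osteoblasts were level with chondrocytes (208 and 167 CPM), and tendon cells were at 165 and 101 CPM, which is the only gate in which Jak1 passed 1.5-fold between genotypes (-0.71). The tendon value in the mutant rested on 17.9 UMIs from 29 cells, 3 of which held 50.1% of them.

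Jak2, which serves the growth hormone and erythropoietin receptors, had its highest level among the 5 gates in osteoblasts, with 64.4 CPM in control and 63.5 CPM in mutant cells (log2 ratio -0.02). It was at 40.8 CPM (33.7 to 49.1) in control and 28.9 CPM (22.8 to 35.9) in mutant chondrocytes (-0.48, intervals overlapping). Osteoblasts exceeded chondrocytes by log2 ratios of 0.65 among control and 1.11 among mutant cells. In fibroblasts Jak2 was at 40.9 CPM from 18.9 UMIs in the control and at 16.5 CPM from 5.95 mutant UMIs (-1.26), and those intervals overlapped too. Control erythroid cells held 60.7 CPM of Jak2, close to osteoblasts.

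Tyk2, a kinase of interferon and interleukin-12 family receptors, was the least abundant of the 8 genes in chondrocytes, with 1.57 CPM (4.43 UMIs) for control and 2.54 CPM (6.96 UMIs) for mutant cells. It was between 3.10 and 11.2 CPM in the other 4 gates of both libraries and did not reach the mean of 10 CPM in any of the 5 gates, so no ratio is given. Jak1 made up 83.3% of the summed CPM of the 3 kinase genes in control chondrocytes and 83.7% in mutant chondrocytes. Over the 5 gates this share ran from 71.5% in mutant osteoblasts to 94.1% in mutant fibroblasts, and it was 64.1% in control erythroid cells.

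Stat5a was the member with the largest ratio in chondrocytes. It fell from 17.1 CPM (12.6 to 22.6; 48.2 UMIs) among control to 5.79 CPM (3.33 to 9.47; 15.9 UMIs) among mutant chondrocytes. The log2 ratio was -1.42, the intervals did not overlap, and only 1.34% of tested genes had a lower ratio. Stat5a was above 0 in 9.40% of control (6.92% to 12.4%) and 5.14% of mutant chondrocytes (2.90% to 8.33%), intervals that do overlap. After thinning, the shares of 2.41% and 1.43% could not be separated.

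The overlap of Stat5a with Stat3 bears on this gene. For every 100 UMIs of Stat3 there were 12.4 of Stat5a in control and 5.82 in mutant chondrocytes. In the other 4 gates of the control library the figure ran from 3.18 (fibroblasts, 1.77 Stat5a UMIs) to 23.4 (marrow stroma, 10.6 Stat5a UMIs). It was 162 in control erythroid cells. How much of either sum came from the 72 shared bases was not tested.

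Stat5b, the closely related neighbour of Stat5a and the main STAT5 gene of growth hormone signalling in liver, was more abundant than Stat5a in all 5 gates of the control library. It was at 33.4 CPM (27.0 to 40.9) in control and 22.8 CPM (17.6 to 29.4) in mutant chondrocytes (log2 ratio -0.53, intervals overlapping). The summed CPM of Stat5a and Stat5b was 50.6 in control and 28.6 in mutant chondrocytes. In osteoblasts Stat5b was at 20.6 and 10.8 CPM (-0.88) and in tendon cells at 23.7 and 5.59 CPM (-1.90), the last from 0.993 UMI, which is 1 cell. Reads that match both STAT5 genes could have been split between them, and how these were counted is not given in the sources used here.

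In other gates Stat5a rested on few molecules. In fibroblasts it was at 3.83 CPM in the control (1.77 UMIs in 2 cells) and 16.6 CPM in the mutant (5.98 UMIs in 3 cells), a log2 ratio of 1.86 with overlapping intervals. In marrow stroma it was at 37.5 CPM (10.6 UMIs) and 16.4 CPM (4.98 UMIs), a ratio of -1.15, again with overlapping intervals. None of the 45 control mural cells held a Stat5a UMI, which at 3 UMIs allows up to 28.2 CPM.

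Stat6, which carries interleukin-4 and interleukin-13 signals, was low in chondrocytes and higher in fibrous and stromal cells. It was at 10.4 CPM (6.90 to 14.8) in control and 13.04 CPM (9.19 to 18.2) in mutant chondrocytes, a log2 ratio of 0.29. Fibroblasts held 55.1 CPM (35.0 to 79.8) and 44.3 CPM (25.4 to 72.1), tendon cells 33.9 and 44.9 CPM, and marrow stroma 62.1 and 32.8 CPM. Fibroblasts were higher than chondrocytes by log2 ratios of 2.29 for control and 1.69 for mutant cells, and tendon cells by 1.61 and 1.71. In both of these contrasts the counting intervals were apart in each library. Between genotypes Stat6 passed 1.5-fold in marrow stroma alone of the 5 gates (-0.90), where its intervals overlapped, and in the mural reference gate it was at 18.3 and 40.5 CPM from 1.95 and 6.99 UMIs (1.10). Nab2, a gene on the opposite strand whose end overlaps the last 40 bases of Stat6, was at 12.5 CPM in control and 26.5 CPM in mutant chondrocytes, and its part in the Stat6 values was not tested.

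Stat2, the interferon-specific STAT whose promoter holds the ISRE letters shown above, was the only member past 1.5-fold in the upward direction in chondrocytes. It was at 8.503 CPM (5.46 to 12.7; 23.9 UMIs) among control and 13.4 CPM (9.49 to 18.6; 36.7 UMIs) among mutant cells. The log2 ratio was 0.60, barely past 1.5-fold, with overlapping intervals, and it was 0.57, just under 1.5-fold, with every cell weighted equally. In osteoblasts it was at 7.68 and 17.0 CPM (1.05), from 4.85 and 10.9 UMIs. It went the other way in tendon cells, at 15.8 and 5.61 CPM (-1.35, with 1 mutant cell above 0), and in marrow stroma, at 62.6 and 39.4 CPM (-0.65). Marrow stroma had the highest level of the 5 gates in both libraries, above chondrocytes by log2 ratios of 2.74 for control and 1.49 for mutant cells, with intervals apart in each.

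Counted together, 7 members were tested in chondrocytes and 2 passed 1.5-fold, Stat2 upward and Stat5a downward. Over all tested genes 32.4% passed, so the members' count is close to that background. The median ratio of the 7 members was -0.47, against -0.17 over all tested genes. Intervals were apart for 3 of 7 members (Stat3, Stat5a and Jak1, all lower in the mutant), where 36.4% of all tested genes had intervals apart. In fibroblasts 2 of 7 passed 1.5-fold (background 44.8%), in osteoblasts 2 of 6 (44.3%), in tendon cells 3 of 7 (52.4%) and in marrow stroma 3 of 7 (49.6%). In none of these 4 gates did a member have intervals apart, against 11.2%, 13.8%, 11.1% and 8.7% of all genes tested there, in the same order. None of the counts in these gates exceeded its background share.

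**Figure D2:**
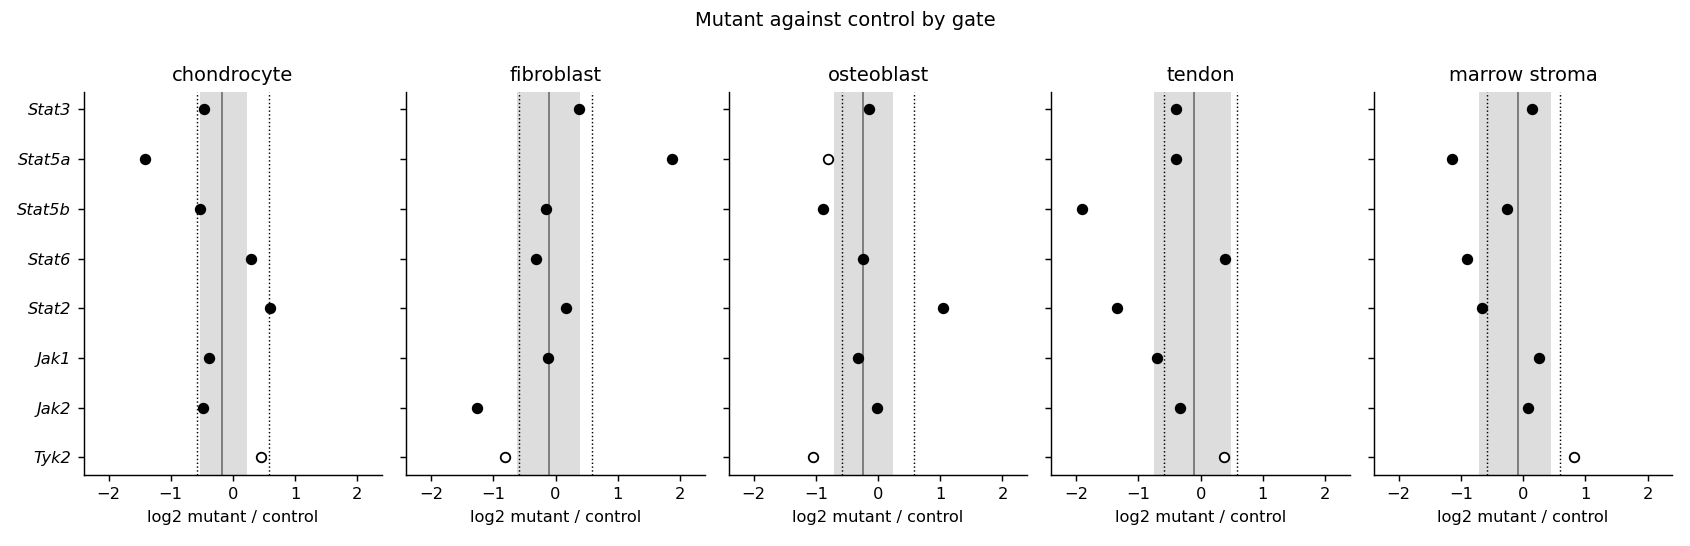
Each panel plots, for 1 gate, the log2 ratio of mutant to control for the 8 genes (filled points tested, open points under a mean of 10 CPM), with dotted lines at 1.5-fold, a grey line at the median of all tested genes and a grey band over their interquartile range. In chondrocytes only Stat5a (-1.42) and Stat2 (0.60) lie outside the dotted lines.

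**Figure D3:**
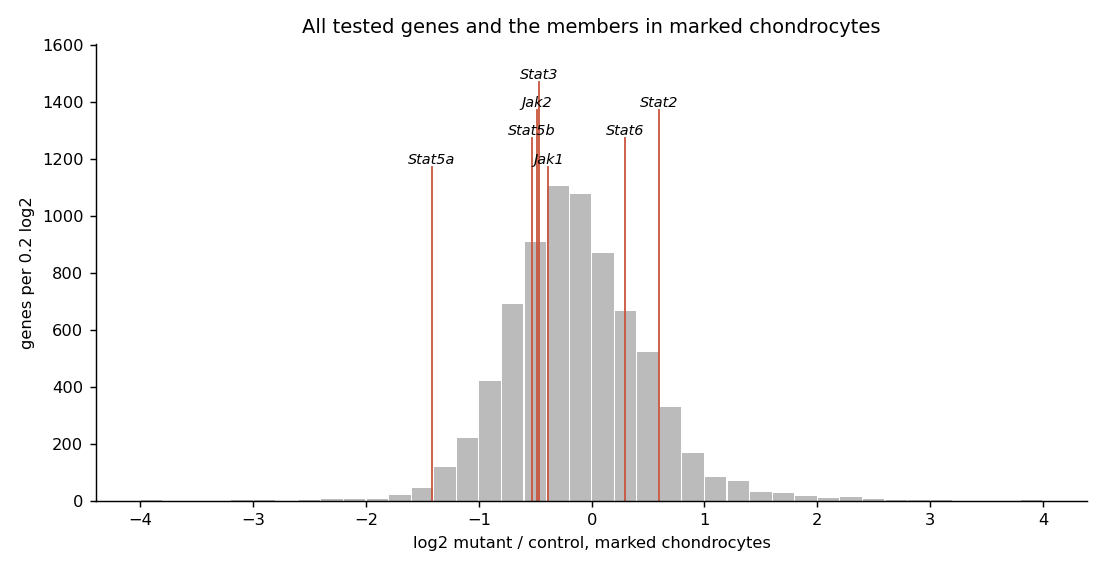
Grey bars count the 7471 tested genes by log2 ratio of mutant to control in chondrocytes (bins of 0.2, ends clipped at -4 and 4), and red lines mark the 7 tested members. Stat3 (-0.47), Jak2 (-0.48), Stat5b (-0.53) and Jak1 (-0.38) stand close together left of the median of -0.17, and Stat5a (-1.42) stands in the lower tail.

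Differences between cell types were read within each library and kept only where both libraries gave the same direction past 1.5-fold. Against chondrocytes, fibroblasts were higher for 3 of 7 members (Stat6, Stat2 and Jak1; 38.1% of all genes passed in either direction) and marrow stroma for 5 of 7 (Stat5a, Stat5b, Stat6, Stat2 and Jak1; 41.6%). Tendon cells were higher for Stat6 alone of 7 (31.3%), and osteoblasts were higher for Jak2 and lower for Stat5b of 6 (28.3%). Stat3 passed in none of these 4 contrasts. Of all tested genes, 2137 of 8231 were higher in fibroblasts and 2552 of 8595 in marrow stroma by this rule. The median log2 ratio of all genes to chondrocytes was 0.22 (control) and 0.29 (mutant) in fibroblasts and 0.33 and 0.45 in marrow stroma. In tendon cells it was 0.06 and 0.08, and in osteoblasts -0.09 and -0.16. With median-of-ratios scaling, the members called over the 4 contrasts went from 11 to 8. Intervals were apart the same way in both libraries for Stat6 and Jak1 in fibroblasts (23.4% of all genes), for Stat2 and Jak1 in marrow stroma (21.7%), for Stat6 in tendon (16.6%) and for no member in osteoblasts (20.3%). Marrow stroma cells had the fewest UMIs of the 5 gates in the control library (median 2855), and globin was above 0 in 66.7% of them there against 4.17% in the mutant. After thinning to 1000 UMIs, no pair of the 5 gates had share intervals apart in both libraries for any member, so these contrasts rest on summed levels and were not detectable in shares of cells at that depth.

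As a share of the 5 STAT genes, Stat3 made up 66.5% of the summed CPM in control and 64.4% in mutant chondrocytes, and 71.3% and 72.3% in osteoblasts. The share was lower in fibroblasts (51.6% and 57.6%), tendon cells (52.0% in each library) and marrow stroma (42.9% and 57.5%). In control erythroid cells it was 14.0%, and there Stat5b (21.3 CPM) and Stat5a (15.4 CPM) both stood above Stat3. Mural cells were at 110 and 197 CPM for Stat3, from 11.7 and 33.9 UMIs.

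Chondrocytes were divided further by genes other than the members. Articular-type cells held at least 3 UMIs of the lubricin gene Prg4 (64 control and 72 mutant cells), and growth-cartilage-type cells held fewer and at least 2 of Matn3, Epyc, Ucma and Col9a1 (363 and 176 cells). Stat3 was at 129 CPM (115 to 144) in control and 79.7 CPM (67.6 to 93.2) in mutant growth-cartilage-type cells, a log2 ratio of -0.69. In articular-type cells it was at 180 CPM (134.5 to 234) and 140 CPM (113 to 173), a ratio of -0.35 with overlapping intervals. The articular type thus had the higher Stat3 level in CPM in both libraries, with intervals apart in the mutant only. Median depths (control and mutant) were 3975 and 8480 UMIs for the articular type and 6209 and 11519 for the growth-cartilage type. After thinning, Stat3 was seen in 17.2% (8.90% to 28.7%) of control and 6.94% (2.29% to 15.5%) of mutant articular-type cells. In growth-cartilage-type cells the shares were 12.4% (9.19% to 16.2%) and 11.0% (6.78% to 16.7%). Among mutant cells the articular type thus had the lower share, and these intervals overlapped throughout. The mutant library had 24.7% of its chondrocytes in the articular type and the control library 13.7%. Whether the 2 ratios differ was not tested.

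The other members separated these cells unequally. Stat6 was at 37.6 CPM (18.2 to 65.3) in control articular-type cells and 7.05 CPM (4.09 to 11.3) in control growth-cartilage-type cells. The mutant values were 23.1 CPM (12.99 to 38.3) and 7.13 CPM (3.93 to 12.1). The articular type was higher in both libraries with intervals apart, from 11.3 and 14.9 UMIs. After thinning, Stat6 was seen in 0% of articular-type cells of each library. In growth-cartilage-type cells the thinned shares were 0.28% for control and 0.58% for mutant. Stat5a fell from 18.0 CPM (13.2 to 24.4) to 4.59 CPM (2.11 to 8.78) in growth-cartilage-type cells, a log2 ratio of -1.77, and was at 12.2 and 7.67 CPM in articular-type cells. Jak2 fell from 38.5 CPM (31.0 to 47.1) to 22.9 CPM (16.9 to 30.9) in growth-cartilage-type cells (-0.73) and was at 49.3 and 44.5 CPM in articular-type cells (-0.14). Jak1 was lower in the mutant for both, at 203 against 151 CPM and at 254 against 152 CPM. Stat2 was at 7.501 and 13.2 CPM in growth-cartilage-type cells (0.74) and at 12.8 and 10.7 CPM in articular-type cells (-0.23). No background over all genes was taken for these sub-gates.

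Cycling chondrocytes held at least 2 of Mki67, Top2a, Cdk1, Birc5 and Pclaf and numbered 42 control and 5 mutant cells. In the 42 control cells Stat3 was at 66.3 CPM (40.4 to 99.8), below the 129 CPM of growth-cartilage-type cells as a whole. These cells were deeper, with a median of 7604 UMIs against 6209, and the cycling gate overlaps the other sub-gates. The 5 mutant cells held 4.96 UMIs of Stat3 and were not compared.

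**Figure D4:**
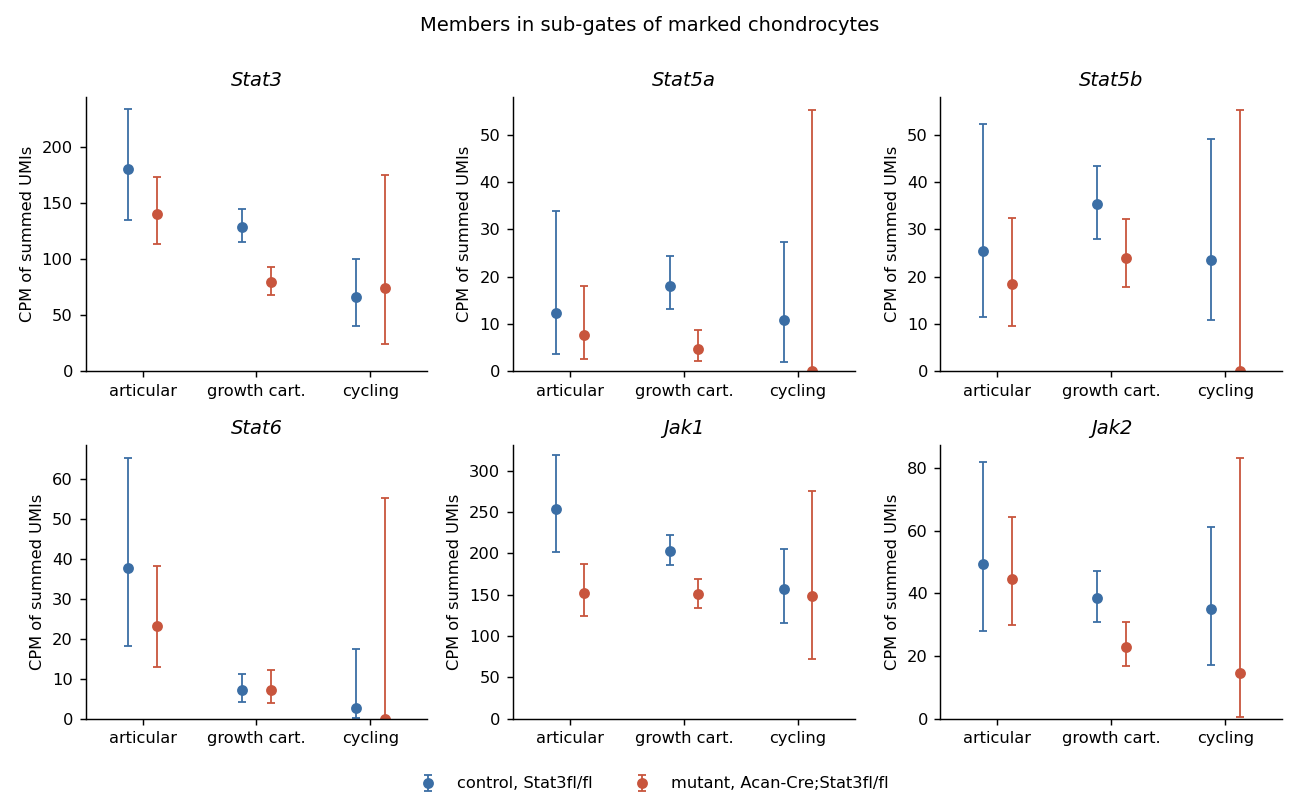
Each panel plots the CPM of 1 gene (linear axis from 0) in articular-type, growth-cartilage-type and cycling chondrocytes of the control (blue) and mutant (red) library, with exact 95% Poisson intervals. Stat6 is higher in articular-type cells of both libraries. Stat3, Stat5a, Jak1 and Jak2 are lower in the mutant growth-cartilage type with intervals apart. The mutant cycling gate holds 5 cells.

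The members work between receptors and target genes, so 64 genes around them were read in chondrocytes. Of these 40 were tested, 8 were past 1.5-fold higher in the mutant library and 4 lower, which is 12 of 40 against the background of 32.4%, and their median ratio was -0.09. Among ligands of gp130, Il11 was higher (46.0 to 316 CPM, log2 ratio 2.76), and so was Clcf1 (5.58 to 19.2 CPM, 1.62). Of 6 gp130-family receptor genes, Osmr, the oncostatin M receptor, was lower (93.4 to 22.8 CPM, -1.99), as was Il6st, which encodes gp130 (118 to 69.1 CPM, -0.77). The interleukin-11 receptor gene Il11ra1 was higher (22.7 to 59.2 CPM, 1.35), with the limit that it has a near-identical copy in the mouse. Il11ra1 was also past 1.5-fold higher in fibroblasts (1.25), osteoblasts (0.84), tendon cells (0.90) and marrow stroma (1.77). Of 6 further receptors that use these kinases, Il15ra was higher (22.4 to 40.0 CPM, 0.81), and the growth hormone receptor gene Ghr was at 26.3 and 26.1 CPM.

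Among 13 tested feedback and inhibitor genes, Socs1 was higher (19.2 to 31.5 CPM, 0.69) and Pias4 lower (13.4 to 7.23 CPM, -0.81). Socs3, the classical feedback inhibitor of gp130, was at 80.4 and 62.6 CPM (-0.35). None of 7 tested genes known to respond to STAT3 passed 1.5-fold, with a median ratio of 0.20. Pim1 was at 168 and 223 CPM and Junb at 337 and 492 CPM, and both were higher in the mutant library by less than 1.5-fold. Of 4 genes known to respond to STAT5, Igf1 was lower (492 to 53.2 CPM, -3.18) and the repressor gene Bcl6 higher (10.5 to 17.4 CPM, 0.67). Irf9, whose product forms the interferon complex with STAT2, was the only tested gene of its list of 6 and was higher (15.4 to 35.2 CPM, 1.14; 43.4 and 96.5 UMIs). No gene of the STAT6 list reached 10 CPM.

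The same lists were read in the other gates. In fibroblasts 7 of 8 genes of the STAT3 list passed 1.5-fold, all higher in the mutant, where 44.8% of all genes passed in either direction, with Myc at 29.0 and 129 CPM (2.12), Pim1 at 55.3 and 215 CPM (1.94), Junb at 245 and 937 CPM (1.93) and Fos at 1784 and 3706 CPM (1.05). The STAT3 list had 4 of 7 tested genes past 1.5-fold higher and 1 lower in osteoblasts (median ratio 0.77), 4 of 7 higher in tendon cells (1.02), and 4 of 8 higher and 1 lower in marrow stroma (0.61), against 44.3%, 52.4% and 49.6% of all genes in either direction. Junb was among the higher genes in all 4 gates. Of all tested genes, 18.2% were past 1.5-fold higher in fibroblasts, 13.2% in osteoblasts, 21.7% in tendon cells and 20.3% in marrow stroma. Of the 50 mutant fibroblasts, the top 3 cells for each gene held 51.5% of Pim1, 36.3% of Myc, 22.8% of Fos and 22.2% of Junb UMIs. Control fibroblasts had a median of 3352 UMIs and mutant fibroblasts 6884, and globin was seen in 72.0% and 2% of them, whose part in these values was not tested. Irf9 was at 54.1 CPM (25.01 UMIs) in control and 5.49 CPM (1.98 UMIs) in mutant fibroblasts, the opposite direction to chondrocytes. Other chondrocyte differences recurred past 1.5-fold in these gates. Osmr was lower in osteoblasts (-0.72), tendon cells (-4.58, with 0 mutant UMIs) and marrow stroma (-0.96), but not in fibroblasts (-0.03). Il11 was higher in fibroblasts (1.42) and osteoblasts (3.23). Igf1 was lower in osteoblasts (-1.41) and marrow stroma (-0.73), but at -0.23 and -0.26 in fibroblasts and tendon cells.

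**Figure D5:**
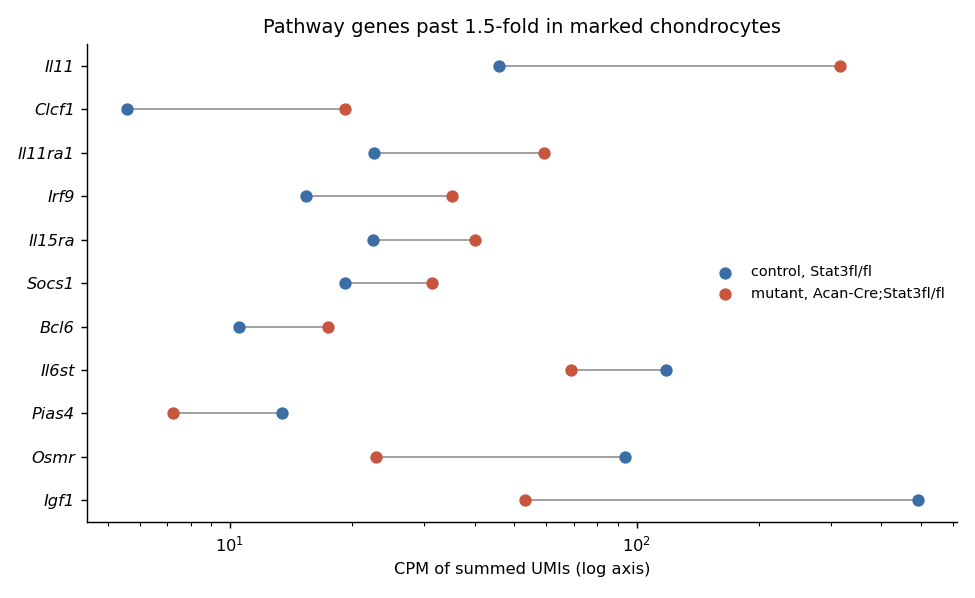
Each row joins the control (blue) and mutant (red) level of a pathway gene past 1.5-fold in chondrocytes, for 11 of the 12 such genes, in CPM on a log axis. Il11 rises from 46.0 to 316 CPM at the top and Igf1 falls from 492 to 53.2 CPM at the bottom.

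Genes with the profile most like a member were sought over 14 points (7 gates in 2 libraries) among 6409 genes with a mean of at least 20 CPM, by Pearson r of log2(CPM + 1). The points share libraries, so r is a description. Stat3 was closest to Klf9 (0.98), Klf6 (0.98) and Wwc2 (0.98), but without the erythroid gate these fell to 0.59, 0.58 and 0.28, so the likeness rests on the low level in erythroid cells. Stat6 was closest to Plin3 (0.96), Man2a1 (0.96) and Lamp1 (0.96), and Stat2 to Lgals3bp (0.95) and Pgd (0.94). Stat5b was closest to Slc25a36 (0.88), Wdr82 (0.86) and Kdm7a (0.85). Jak1 was closest to Dpep1 (0.90), Ptx3 (0.89) and C4b (0.88), and Jak2 to Ormdl3 (0.82), Bag6 (0.77) and Eaf1 (0.76). For Stat6, Stat2, Stat5b, Jak1 and Jak2 the values without the erythroid gate ran from 0.74 to 0.90. Stat5a and Tyk2 were under the mean of 20 CPM and were not compared.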

How the data were processed

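Single-cell 3′ libraries (10x Genomics v3.1) were prepared from 1 pool of knees per genotype. Reads were processed by the authors in Partek, aligned to mm10 with STAR 2.7.3a, deduplicated by UMI and counted on a Gencode annotation, and ambient RNA was removed with SoupX. Gene values were deposited on a log2(CPM + 1) scale for each cell. The authors also gave each cell's total as an estimated count, which need not be whole once ambient RNA is removed. Mitochondrial content is deposited as a percent, and the number of expressed genes as a score. Here, estimated UMIs were recovered from each value and the total of its cell, and 74.9% (control) and 97.3% (mutant) of values above 0 lay within 0.1 of a whole number. UMIs were summed per gate and library (23576400 in all control and 7452650 in all mutant cells), a pseudocount of 1 CPM was used, and past 1.5-fold is a rule of size, not a test, because each group is 1 library. Sums were rounded for the Poisson intervals, which were added after the units were known. Doublets (Scrublet in scanpy 1.11.5, expected rate 0.05) were marked in 74 control and 2 mutant cells and kept. The low mutant number leaves unknown whether the caller worked there. Calculations were tested on simulated data. The named genes were the 8 members, Acan, the gating genes, the 12 pathway genes past 1.5-fold in chondrocytes (of which 1 is counted but not reported here) and the genes most alike to a member; other named genes were chosen after their values were seen. The members and lists were chosen with earlier results of these data known. Alternatives covered weighting, scaling, cell filters, gates, depth, pseudocount, fold and filter.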

Additional observations from a re-analysis of the deposited data

Results flagged for a closer look

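Over the 5 gates, 2 members were past 1.5-fold in opposite directions in different gates. Stat5a had a log2 ratio of mutant to control of -1.42 in chondrocytes and -1.15 in marrow stroma but 1.86 in fibroblasts. The fibroblast value rests on 1.77 control and 5.98 mutant UMIs. It was 1.33 with every cell weighted equally, where the mean level was under 10 CPM, and with cells thinned to 1000 UMIs no Stat5a was left in fibroblasts of either genotype. Stat2 had a ratio of 0.60 in chondrocytes and 1.05 in osteoblasts but -1.35 in tendon cells and -0.65 in marrow stroma. The mutant tendon value rests on 1 UMI. With every cell weighted equally, Stat2 was called past 1.5-fold in tendon cells alone. Among cells without globin UMIs, Stat2 was called higher in chondrocytes and fibroblasts and lower in tendon cells, but not in osteoblasts or marrow stroma. The reference gates, with few UMIs, added opposite directions for Jak2 (fibroblasts -1.26, mural cells 1.51), Stat6 (marrow stroma -0.90, mural cells 1.10) and Stat5b (osteoblasts -0.88, erythroid cells 0.71). With 1 library per genotype, none of these differences between gates was tested.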

How the results depend on the processing

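No paired analysis was possible because each genotype has 1 library. The Stat3 ratio in chondrocytes kept its direction under all 10 alternatives, between -0.62 (thinned to 1000 UMIs) and -0.30 (median-of-ratios scaling). The difference in share of Stat3-positive chondrocytes changed sign, within its counting interval, with only cells at or under 5% mitochondrial counts (1.14 points) and with chondrocytes taken by Sox9 and Col2a1 (0.82 points). Members past 1.5-fold in chondrocytes went from 2 to 1 with a pseudocount of 10 CPM and at 2-fold, and to 0 with a mean of at least 20 CPM. The count was 3 with cells weighted equally, thinned, with cells in several gates kept and with chondrocytes by Sox9 and Col2a1, and Stat3 was among those called when thinned and with either gating marker. In the other 4 gates the count went from 10 to 19 when thinned, 6 at 2-fold and 5 with a mean of at least 20 CPM. Members past 1.5-fold against chondrocytes in both libraries went from 11 to 7 when thinned, 7 with either gating marker and 6 at 2-fold. Pathway genes in chondrocytes went from 12 to 25 when thinned, 7 at 2-fold and 27 with no filter. Stat5b in osteoblasts turned from -0.88 to 0.33 with at least 2 UMIs of each gating marker. In chondrocytes Stat5b turned from -0.53 to 0.43 when thinned, while every other alternative kept its ratio negative (-0.63 with every cell weighted equally). The share of thinned chondrocytes holding Stat5b was itself lower in the mutant library, at 1.79% against 2.63%, with overlapping intervals. Counts and ratios when thinned rest on 1 random draw, and their spread over draws was not tested. The causes of the shifts under the alternatives were not tested either. Of 460 values of single members under alternatives, 435 stayed within the counting interval of the ratio. With cells at or under 5% mitochondrial counts the tendon gate held 15 mutant cells and got no ratio. Depth limits the low members, and Tyk2 reached a mean of 10 CPM in none of the 5 gates. The erythroid gate was left out of the comparison of profiles after the data were seen.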

Other observations

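Cells in no gate made up 2150 of the control and 724 of the mutant library. In these cells Stat3 was at 105 CPM (97.9 to 113) in the control and 130 CPM (116 to 145) in the mutant library, and Jak1 at 197 CPM (187 to 208) and 216 CPM (198 to 234). Stat5a was at 16.9 CPM (14.0 to 20.2) and 12.2 CPM (8.39 to 17.3), and Jak2 at 47.4 CPM (42.5 to 52.7) and 36.6 CPM (29.5 to 44.5). Globin was above 0 in 80.1% of these control cells and 11.9% of these mutant cells. In the 23 mutant erythroid cells Stat3, Stat5a, Stat6 and Stat2 were at 0 UMIs, which at 3 UMIs allows up to 53.5 CPM each, above the control levels of all 4.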
